A study of Mus musculus with 32 samples.

Results

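The autosomal Morc family genes are the 4 members Morc1, Morc2a, Morc2b and Morc3, chosen by name from the 20661 autosomal protein-coding genes of the RefSeq gene table. Each gene was examined together with 100 kb on either side, and the rule that picks the members is by name and uses no peak. The members were nonetheless chosen with earlier results of these data known. Chromatin immunoprecipitation and sequencing (ChIP-seq) had been used to map trimethylation of histone H3 at lysine 9 (H3K9me3), a mark of silenced chromatin, in male mouse germ cells. These cells were isolated from testes of mice with the Mvh-Venus transgene, a fluorescent reporter named for a germ cell gene, which every group carried. Heterozygous Morc1 (+/-) mice (het) and homozygous Morc1 (-/-) mice (KO) were sampled before birth at stages E13.5 and E16.5 (E, embryonic day) and after it at stages P0 and P3 (P, postnatal day), so the controls also lacked 1 functional copy of Morc1. Each of the 8 H3K9me3 groups had 2 samples and 1 deposited peak list. How the germ cells were isolated, the number of animals in each sample and the nature and position of the Morc1 mutation are not given in the sources used here. Peak positions do not show gene expression, so the labelled cell type could not be checked against markers.

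MORC proteins are nuclear ATPases of the GHKL class that compact chromatin and take part in gene and transposon silencing. MORC1 acts in male germ cells, where transposons are silenced during the gonocyte stage. MORC2, the product of Morc2a in mice, works with the HUSH complex, which directs H3K9me3 to transposons and newly integrated DNA. Morc2b is a rodent relative of Morc2a that is active in the germ line and needed for meiosis. MORC3 binds histone H3 methylated at lysine 4, is found at PML nuclear bodies and takes part in silencing of endogenous retroviruses.

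Positions are 1-based on mm10 (GRCm38). Morc1 occupies chr16:48431237-48630905 and is 199.7 kb long. Morc2a lies at chr11:3649189-3690477 and spans 41.3 kb. Morc2b, the shortest member, lies at chr17:33135588-33150499 and spans 14.9 kb. Morc3 shares chromosome 16 with Morc1, at chr16:93832121-93876077, and spans 44.0 kb. The gene table gives starts and ends without exons, so a peak within a gene was not assigned to exon, intron or UTR. The 8 lists held between 52628 and 93523 peaks, and between 14.8% and 22.6% of the peaks of a list had the length of 1001 bp, the most common one. A value of 1.00 kb below is therefore usually 1 peak of this most common length. Each value comes from 1 list, with no replicate error and with unknown read depth, so no p-value was computed and all comparisons describe the lists.

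Promoters are shown first, because in 1 of them H3K9me3 was called in all 8 lists. The RefSeq promoter table of GRCm38.p6 held 5 entries for 3 of the 4 members, and Morc1 was not among them. The 250 bases upstream of the listed transcript start are printed 5′ to 3′ for 3 entries, with CG dinucleotides in capitals. The outer Morc2b promoter (chr17:33148750-33148999, minus strand) is the one under a peak, and the inner Morc2b promoter (chr17:33139684-33139933, minus strand) and the Morc3 promoter (chr16:93831871-93832120, plus strand) are shown for contrast. Outer means the more upstream of the listed starts of a gene. The outer Morc2b promoter lies inside the gene, whose upper end is at 33150499, and the inner Morc2a promoter begins 9.48 kb into its gene. Whether the listed starts are used in these cells was not tested.
Morc2b outer promoter: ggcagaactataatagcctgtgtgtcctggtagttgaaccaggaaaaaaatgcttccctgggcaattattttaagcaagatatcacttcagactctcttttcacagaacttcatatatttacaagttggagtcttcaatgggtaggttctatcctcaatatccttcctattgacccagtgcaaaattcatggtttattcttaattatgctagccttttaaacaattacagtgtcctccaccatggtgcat
Morc2b inner promoter: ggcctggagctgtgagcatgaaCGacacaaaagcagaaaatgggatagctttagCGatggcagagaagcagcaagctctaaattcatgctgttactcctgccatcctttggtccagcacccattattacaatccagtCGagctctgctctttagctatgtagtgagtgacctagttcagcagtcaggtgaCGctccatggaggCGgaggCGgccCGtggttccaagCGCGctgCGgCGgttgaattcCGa
Morc3 promoter: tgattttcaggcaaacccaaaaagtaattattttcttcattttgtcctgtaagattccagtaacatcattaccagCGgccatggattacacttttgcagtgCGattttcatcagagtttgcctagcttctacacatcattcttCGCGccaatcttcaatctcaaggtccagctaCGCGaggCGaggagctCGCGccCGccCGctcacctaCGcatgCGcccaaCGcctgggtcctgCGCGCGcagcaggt

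The outer Morc2b promoter lay wholly inside a peak in 7 lists. In the remaining list, E13.5 KO, the peak began at position 33148977 and took in 23 of the 250 bases. Of 31396 autosomal promoters, 1.8% were touched by a peak in all 8 lists, 1.52% lay wholly inside one in all 8, and 87.5% were touched in none. In single lists the touched share was 4.32% in E13.5 het, 5.82% in E13.5 KO, 5.24% in E16.5 het, 4.83% in E16.5 KO, 5.68% in P0 het, 6.52% in P0 KO, 5.3% in P3 het and 6.22% in P3 KO. The other 4 Morc promoters belonged to the last class, with no called base in any list. They comprise the inner Morc2b promoter, the Morc3 promoter and both Morc2a promoters (chr11:3649187-3649436 and chr11:3658422-3658671, plus strand).

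The sequences also differed in CG dinucleotides, the sites of DNA methylation. The outer Morc2b promoter had none, as did the inner Morc2a promoter. The inner Morc2b promoter had 12, the Morc3 promoter had 17 and the outer Morc2a promoter had 39. CG was searched as these letters, which read the same on both strands. At least 1 was present in 92.4% of all 31396 promoters. The median was 6 CG over all of them and 1 over the 564 promoters touched in all 8 lists. Absence of CG did not set the covered Morc2b promoter apart from the inner Morc2a promoter, which was never covered.

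**Figure D1:**
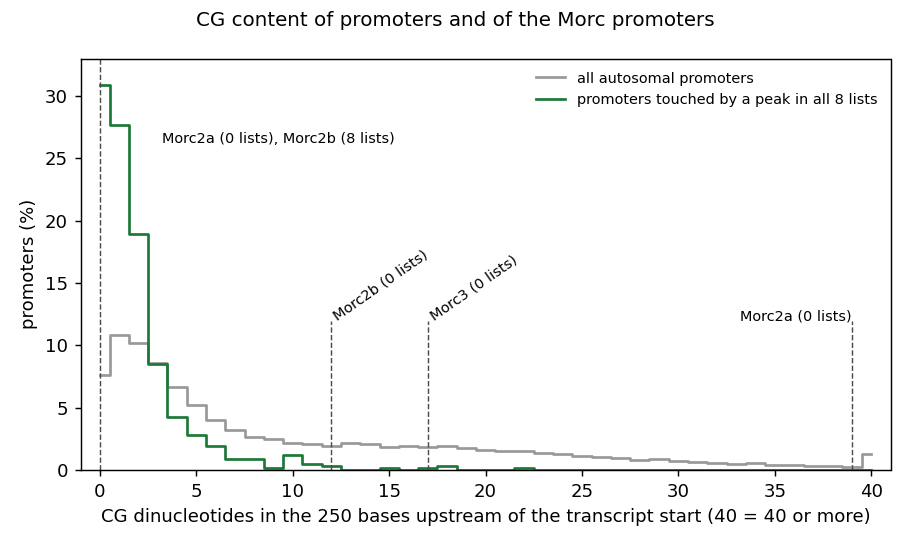
Distribution of the number of CG dinucleotides (x axis) in the 250 bases upstream of transcript starts, as a percent of promoters (y axis), for all 31396 autosomal promoters (grey) and for the 564 touched by a peak in all 8 lists (green). Dashed lines mark the 5 Morc promoters with the number of lists that touch each: 8 for the outer Morc2b promoter at 0 CG, and 0 for the other 4.

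Gene bodies were compared next. In E13.5 het all 4 members had a called base pair in the body, against 30.7% of all autosomal protein-coding genes. In E13.5 KO 3 members did (34.2% of all genes). At E16.5 the count was 3 in het (33% of all genes) and 2 in KO (32.1%). At P0 it was 3 in het (35%) and 2 in KO (40.1%), and at P3 it was 3 in both genotypes (39% in het, 41.7% in KO). Morc2b and Morc3 were the 2 members called in the body in every list, a pattern found in 19.9% of all genes. No member belonged to the 43.9% of genes without a body call in any list. With the flanks added, all 4 were called in every list, as were 86.2% of all genes. The median gene had no called base pair in the body in any of the 8 lists. Here and below, the shares over all genes were not matched for gene length, which is 14.9 kb for Morc2b and 199.7 kb for Morc1.

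By direction, the called length in the body was greater in het for 3 members at E13.5 (10.1% of all genes), 2 at stage E16.5 (20.9%), 1 at stage P0 (8%) and 1 at P3 (12.3%). It was greater in KO for 1 member at E13.5 (24.4%), 1 at stage E16.5 (10.8%), 2 at stage P0 (31.5%) and 2 at P3 (30.1%). Morc1 was longer in het at all 4 stages, as were 0.629% of all genes. Morc3 was longer in KO at all 4 stages, as were 3.04% of all genes.

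**Figure D2:**
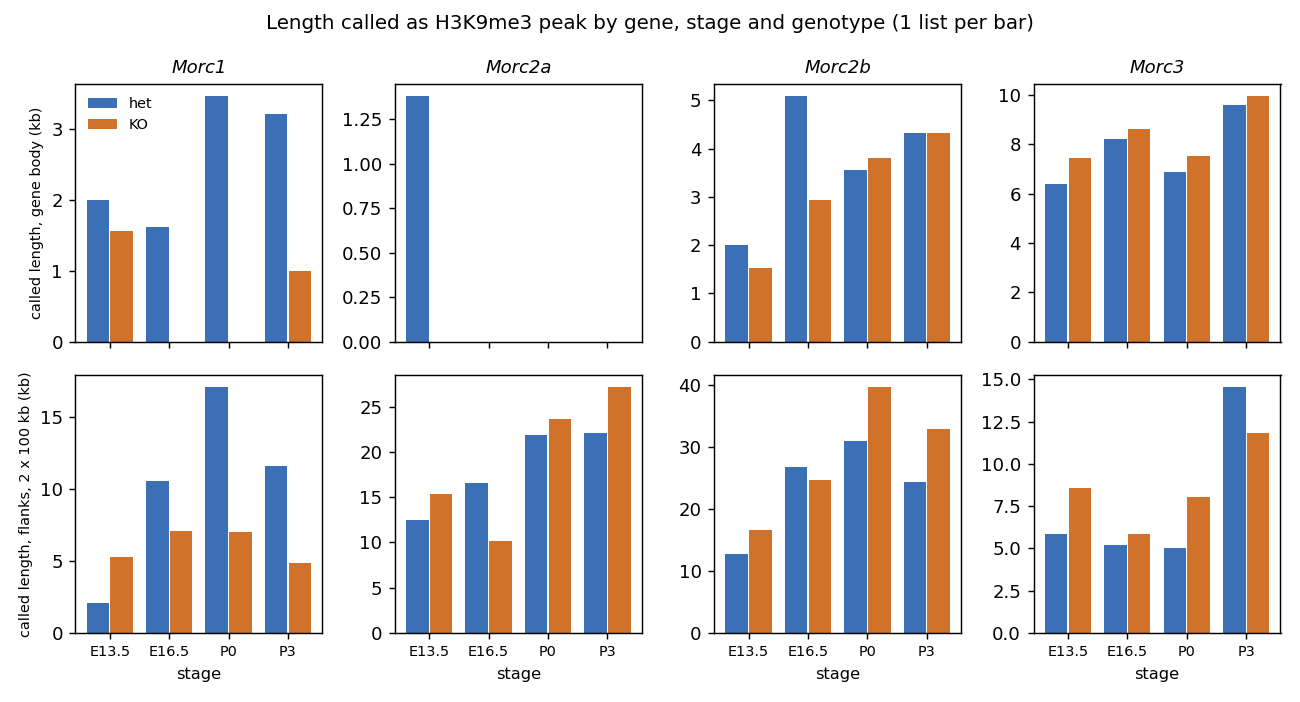
Length called as H3K9me3 peak (y axis, kb) in the gene body (upper row) and in the flanks of 100 kb on each side (lower row) for each member, by stage (x axis) and genotype (blue het, orange KO). Each bar is 1 list and has no error bar, and the y scales differ between panels; the Morc3 body is longer in KO at each stage by 0.385 to 1.08 kb.

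In the flanks the members mostly went the way of the genome. At E13.5 all 4 had more called length in KO (74.6% of all genes) and none in het (18.7%). At E16.5, 3 had more in het (64.7%) and Morc3 had more in KO (27.9%). At P0 Morc1 had more in het (27.7%) and the other 3 had more in KO (68.5%). At P3 Morc1 and Morc3 had more in het (28.2%), and Morc2a and Morc2b had more in KO (67.8%). No member had longer flanks in het at all 4 stages (2.24% of all genes) or in KO at all 4 (12.4%).

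Morc1, the gene disrupted in these mice, was sparsely marked. Within the gene 4 separate sites were called, a site being the merged extent of overlapping peaks of the 8 lists. The most recurrent one, chr16:48497864-48500411, began 66.6 kb from the lower end of the gene and was called in all 4 het lists and in no KO list. Its peaks were chr16:48497864-48498864 at E13.5, chr16:48498044-48499660 at stage E16.5, chr16:48497942-48500411 at stage P0 and chr16:48497989-48500201 at P3. They were 1.00, 1.62, 2.47 and 2.21 kb long. None of the 4 KO lists had a called base in any of these intervals.

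Few sites in the genome had this distribution. Of 121849 merged autosomal sites, 17 (0.014%) were called in 4 het lists and 0 KO lists, and 7 (0.00574%) had the opposite distribution. The 17 sites lay on 11 chromosomes, with 2 on chromosome 16, which holds 3.89% of all sites. The second one on that chromosome, chr16:60558825-60562608, was 11.9 Mb from Morc1. Whether the KO chromosomes carry the sequence of the Morc1 site was not tested, since the position of the mutation is not given in the sources used here and no read coverage was used.

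A second het site, chr16:48462451-48463553, began 31.2 kb into the gene. It was called at E13.5 (chr16:48462451-48463451), P0 (chr16:48462549-48463549) and P3 (chr16:48462553-48463553), with 1 peak of 1001 bp each time, and was absent from E16.5 het and from all KO lists. Sites in 3 het lists and no KO list made up 0.286% of all sites. The KO lists had 2 sites of their own in the gene, each in 1 list. One was chr16:48614548-48616111 at E13.5, near the upper end of the gene. The other was chr16:48431779-48432779 at P3, which began 0.542 kb from the lower end. No position within Morc1 was called in both genotypes, and the share of all genes with this property was not computed. All peaks within Morc1 belonged to the shorter 50% of the peaks of their list, and without peaks of 1001 bp the body difference at E13.5 turned from 0.438 to -1.56 kb (het minus KO).

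The flanks of Morc1 also had more called length in het than in KO from E16.5 on. Called length in both flanks together was 2.06 kb in het versus 5.29 kb in KO at E13.5, and at E16.5 it was 10.5 against 7.07 kb. At P0 it was 17.05 kb in het versus 6.98 kb in KO, a ratio of 2.44, and at P3 it was 11.5 against 4.84 kb, a ratio of 2.38. The median gene had flanks of 12.2 kb in het versus 14.5 kb in KO at P0, and of 12.7 and 14.7 kb at P3. The Morc1 het value at P0 was thus above the median, while the KO values at P0 and P3 and the het value at P3 were below it.

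Of the 28 het peaks that touched the Morc1 window, 18 had no base in common with a KO peak of the same stage, against 6 of 15 KO peaks. Over all autosomes 12.7% of het peaks and 17.2% of KO peaks had no counterpart. The unmatched het peaks near Morc1 numbered 7 of 11 at P0 (11.6% of all autosomal het peaks of that stage) and 6 of 7 at P3 (13.7%). In the embryonic het lists they numbered 2 of 3 at E13.5 and 3 of 7 at stage E16.5. Unmatched KO peaks numbered 4 of 5 at E13.5, 0 of 4 at stage E16.5, 1 of 4 at stage P0 and 1 of 2 at P3. Shares of all peaks were not computed for these single lists. Among the 18 sites of the window, 7 were called in het lists only (11% of all autosomal sites were in no KO list) and 4 in KO lists only (15.4% were in no het list). Calls in both P0 and P3 het lists and in neither KO list of those stages were found at 5 of the 18 sites, and at 3.15% of all sites. No site around the other 3 members had this pattern, which was looked for after the Morc1 values had been seen.

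The 5 sites included the 2 het sites within the gene. A further 2 lay just below it, at chr16:48419970-48421095 and chr16:48424611-48428155. The second of these was 3.55 kb long at P0 and 1.51 kb at P3. The fifth lay beyond the upper end, at chr16:48652816-48656522, where het peaks were 1.66 kb long at stage E16.5, 3.71 kb at stage P0 and 2.98 kb at P3. At E13.5 that site was called in KO only, with 1.00 kb.

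At 2 sites on the upper side peaks were called in both genotypes at every stage. The site chr16:48716059-48721714, between Morc1 and Trat1, was called in all 8 lists. Het peaks covered 2.06, 2.59, 3.498 and 5.05 kb of it from E13.5 to P3, and KO peaks covered 2.28, 2.96, 2.98 and 4.84 kb. It therefore lengthened with age in both genotypes. The next site, chr16:48729608-48741238, lay mostly beyond the window, over the lower-coordinate end of Trat1, a gene for a T cell receptor adaptor. Only its P0 het peak, chr16:48729608-48741024, reached into the window, and the peaks of the other lists lay wholly outside it. Over its full extent this site too was called in all 8 lists, and at P0 it was 11.4 kb in het versus 6.50 kb in KO. At P3 the lengths were 8.83 and 4.91 kb.

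**Figure D3:**
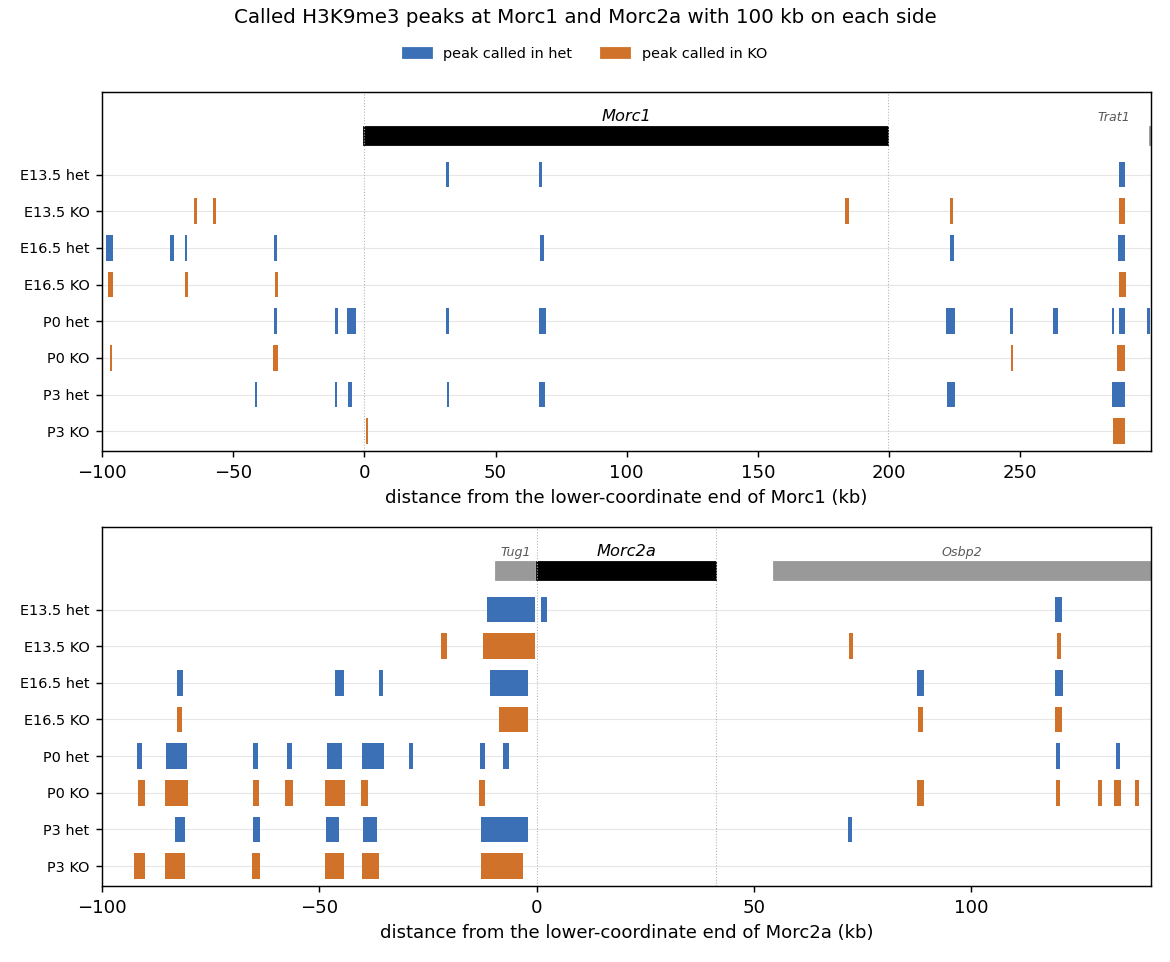
Peaks of the 8 lists (rows, blue het, orange KO) along Morc1 (upper panel) and Morc2a (lower panel), against the distance in kb from the lower-coordinate end of the gene (x axis). Black bars are the member genes and grey bars are neighbours. The Morc1 site that begins at 66.6 kb is present in the 4 het rows and absent from the 4 KO rows, and at P0 the site that takes in Tug1, next to Morc2a, is reduced to 2.59 kb in het and 1.28 kb in KO, the latter outside Tug1.

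Morc2a itself was almost free of calls. The single peak within the gene was chr11:3650257-3651637 in E13.5 het, 1.38 kb long and 1.07 kb from the lower end of the gene. The other 7 lists had no called base in the 41.3 kb of the body. In contrast, the flanks carried 12.5 kb in het versus 15.4 kb in KO at E13.5, and P3 lists had 22.1 and 27.2 kb. Most of it lay on the lower side, for example 27.2 kb of the P3 KO length with none on the upper side.

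The largest block beside Morc2a covered Tug1, a long noncoding RNA gene whose upper-coordinate end lies less than 1 kb from Morc2a. The merged site, chr11:3636000-3648782, was called in all 8 lists. At E13.5 it was 10.8 kb long in het (chr11:3637891-3648717) and 11.995 kb in KO (chr11:3636788-3648782). At E16.5 it was 8.71 kb in het versus 6.52 kb in KO. At P3 it was 10.9 kb in het (chr11:3636327-3647191) and 9.75 kb in KO (chr11:3636326-3646075).

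At P0 the same site was reduced in both genotypes, to 2.59 kb in het versus 1.28 kb in KO. In KO the remaining peak lay outside Tug1. Over Tug1 alone, which is 9.03 kb long, the P0 lists had 1.34 kb in het and no called base in KO. The embryonic lists had 6.52 to 8.998 kb over Tug1, and the P3 lists had 7.41 kb in het versus 6.29 kb in KO. Of the 29915 autosomal sites called in all 8 lists, 5 (0.0167%) had both P0 values under 50% of the lowest value of the other 6 lists. Sites with no call left in a P0 list are outside this count, so it does not give how often calls shrink at P0. This measure was chosen after the Tug1 values had been seen. Both P0 lists were among the largest of the series in peak number, at 86812 and 93523, and their read depth is unknown. The part of list size and read depth in the P0 values of this site was not tested.

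Further from Morc2a, on the lower side, sites appeared with age. The site chr11:3563574-3568909 was absent at E13.5, had 1.28 kb in het versus 1.00 kb in KO at stage E16.5, 4.72 and 5.26 kb at stage P0, and 2.204 and 4.715 kb at P3. At chr11:3600555-3604997 the calls were 2.24 kb in E16.5 het and none in E16.5 KO, and then 3.43 and 4.40 kb at stage P0 and 3.08 and 4.38 kb at P3. A further site, chr11:3608691-3614013, had 4.90 kb in het versus 1.81 kb in KO at P0, and 3.31 and 3.98 kb at P3. The order of the genotypes thus turned between P0 and P3 at this site. Peaks on the upper side, within Osbp2, a gene for an oxysterol-binding protein, were at most 1.79 kb long inside the window.

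Of the Morc2a peaks, 6 of 26 in het and 6 of 26 in KO had no counterpart in the other genotype, against 12.7% and 17.2% of all autosomal peaks. The 16 sites around Morc2a included 2 in het lists only (12.5%, against 11% of all sites) and 3 in KO lists only (18.8%, against 15.4%), shares near those of all sites.

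Morc2b had the largest called share of body and window among the 4 members in most lists. Peaks covered 13.4% of the body in het and 10.2% in KO at E13.5, and E16.5 peaks 34.1% and 19.6%. At P0 the shares were 23.9% and 25.5%, and at P3 they were 29.0% in both. Between 89.0% (E13.5 KO) and 95.5% (E16.5 het) of all autosomal protein-coding genes had a smaller share. In the E13.5 lists the Morc3 body share was larger, at 14.5% in het and 16.97% in KO.

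Nearly all of the Morc2b body length belonged to 1 site, chr17:33146179-33152167, which overlaps the outer promoter and runs past the upper end of the gene. The peaks were chr17:33148503-33151790 in E13.5 het and chr17:33148977-33152079 in E13.5 KO. At E16.5 they were chr17:33146410-33151006 in het and chr17:33147572-33151199 in KO. At P0 they were chr17:33146939-33152110 in het and chr17:33146699-33152167 in KO, and at P3 chr17:33146182-33150918 in het and chr17:33146179-33151047 in KO. In both genotypes the peak was longer at every later stage than at E13.5, from 3.29 kb in het versus 3.10 kb in KO to 5.17 and 5.47 kb at P0. The P0 and P3 het peaks lay entirely within the KO peaks of the same stage. The site also touches Gm21062, a protein-coding gene model inside Morc2b, in 3 lists by 0.396 kb at most.

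The only other peak in the Morc2b body was chr17:33136220-33137220 in E16.5 het, a peak of 1001 bp near the lower end. It accounts for 1.00 of the 2.16 kb by which the het body exceeded the KO body at E16.5.

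In the Morc2b flanks called length was higher in KO at 3 of 4 stages. At E13.5 it was 12.8 kb in het versus 16.6 kb in KO, and at E16.5 26.7 against 24.7 kb. At P0 it was 30.9 against 39.6 kb, and at P3 24.3 against 32.8 kb. Most of the postnatal difference came from neighbouring sites, chr17:33060237-33070654 and chr17:33073509-33084738, below the zinc finger gene Zfp563. The first contains the transcribed pseudogene Phf8-ps.

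Together these 2 sites had 1.79 kb in het versus 4.35 kb in KO at E13.5. They grew to 14.1 and 13.1 kb at stage E16.5, to 15.7 and 21.4 kb at stage P0, and were 13.6 and 20.4 kb at P3. In KO they were 2 broad peaks of 10.4 and 10.99 kb at P0 (chr17:33060265-33070654 and chr17:33073509-33084495). The larger het peaks there were 5.265 and 8.308 kb (chr17:33064911-33070175 and chr17:33076431-33084738). At P3 the KO peaks were 9.96 and 10.4 kb, and the larger het peaks 4.308 and 7.689 kb. The KO peaks extended further than the het peaks on the lower side of each site.

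A further 2 sites near Morc2b were called in all 8 lists. One lay below the gene, at chr17:33124000-33128185, with 1.78 to 4.07 kb called. The other lay between Olfr1564 and Zfp955a, at chr17:33220835-33226780, with 3.68 to 5.48 kb. The bodies of Zfp563, Zfp955a and the olfactory receptor genes Olfr55, Olfr239 and Olfr1564 had no called base in any list. With 4 of its 11 sites called in all 8 lists, Morc2b had the most constant surroundings, against 24.6% of all autosomal sites. The E16.5 het list had 1 of its 10 peaks without a counterpart, the only such het peak over the 4 stages, and 4 of 33 KO peaks had none. Over all autosomes these shares were 12.7% in het and 17.2% in KO, beside 3.13% and 12.1% at Morc2b.

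**Figure D4:**
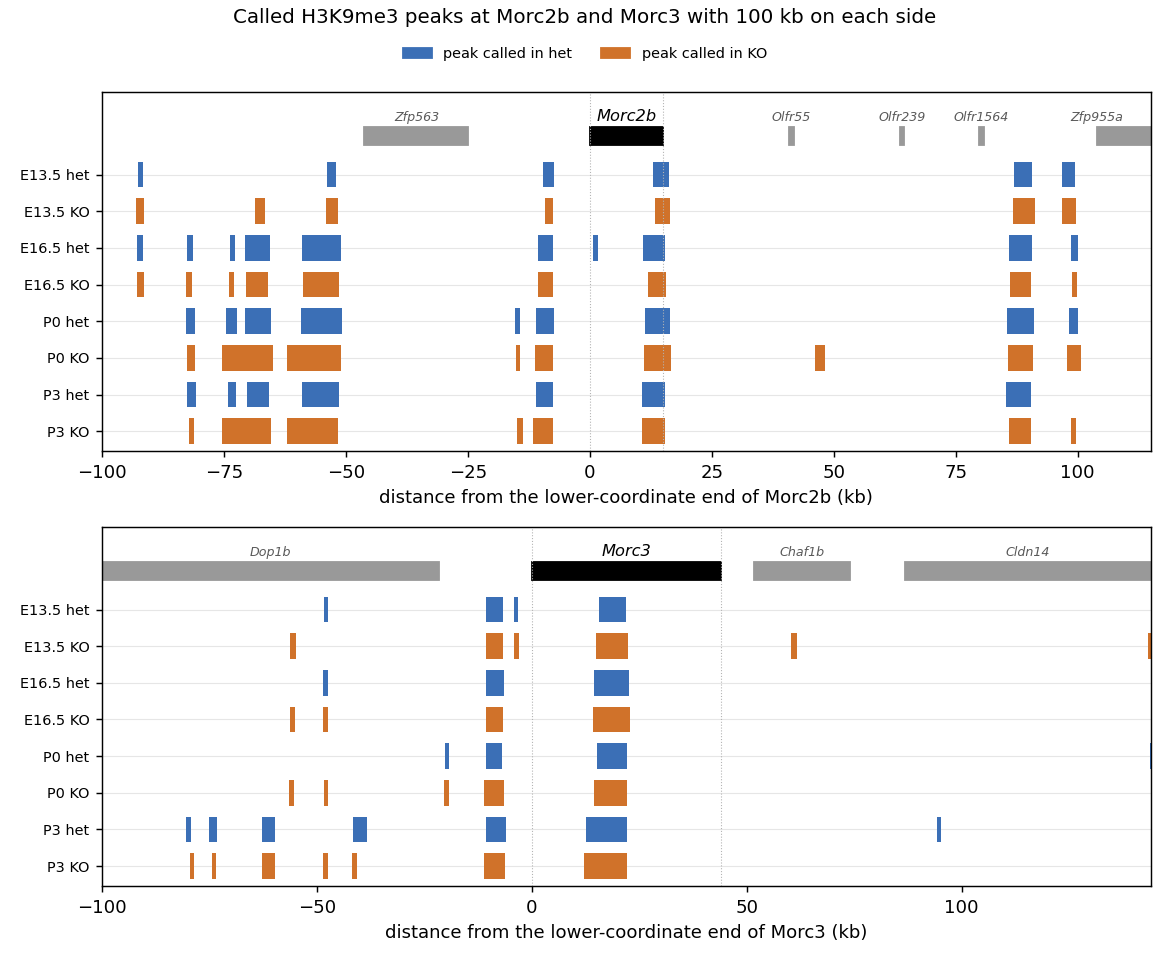
Peaks of the 8 lists (rows, blue het, orange KO) along Morc2b (upper panel) and Morc3 (lower panel), against the distance in kb from the lower-coordinate end of the gene (x axis), with member genes in black and protein-coding neighbours in grey. A peak lies over the upper end of Morc2b and another inside Morc3 in all 8 rows, and the 2 neighbouring KO peaks below Zfp563 are broader than the het peaks at P0 and P3.

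Morc3 had a single site in its body, and it was called in every list. The merged site, chr16:93844309-93855009, began 12.2 kb and ended 22.9 kb from the lower end of the gene, which is the end with the listed transcript start. Het peaks were 6.38 kb at E13.5 (chr16:93847759-93854141), 8.19 kb at stage E16.5 (chr16:93846590-93854783), 6.85 kb at stage P0 (chr16:93847372-93854224) and 9.57 kb at P3 (chr16:93844686-93854255). KO peaks were 7.46 kb at E13.5 (chr16:93847010-93854467), 8.61 kb at stage E16.5 (chr16:93846397-93855009), 7.53 kb at stage P0 (chr16:93846698-93854230) and 9.96 kb at P3 (chr16:93844309-93854263).

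At each stage the het peak lay entirely inside the KO peak. The KO peak was longer by a factor of 1.17 at E13.5, 1.05 at stage E16.5, 1.10 at stage P0 and 1.04 at P3. Of the sites called in all 8 lists, 10.3% were longer in KO at all 4 stages and 4.22% were longer in het at all 4. The upper end of the Morc3 peak moved less than its lower end. Both genotypes followed the same course, with longer peaks at stage E16.5 and P3 than at E13.5 and P0.

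The share of the Morc3 body under peaks ranged from 14.5% (E13.5 het) to 22.6% (P3 KO). Between 90.4% and 93.5% of all genes had a smaller share. A second constant site, chr16:93821091-93826144, lay below the gene, within the noncoding gene Gm30881, with 3.77 to 4.88 kb called in the 8 lists. The Morc3 promoter, between these 2 sites, was clear in all of them.

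The flanks of Morc3 had less called length before P3 than at P3. They had 5.86 kb in het versus 8.57 kb in KO at E13.5, 5.20 and 5.85 kb at stage E16.5, 5 and 8.04 kb at stage P0, and 14.6 and 11.8 kb at P3. For the median gene the values were 5.915 and 7.47 kb at E13.5 and 10.1 and 9.32 kb at stage E16.5. They were 12.2 and 14.5 kb at stage P0, and 12.7 and 14.7 kb at P3. At P3 sites appeared in both genotypes within Dop1b, a gene for a membrane trafficking protein. One of them, chr16:93769392-93772359, had 2.91 kb in het versus 2.94 kb in KO and no call at other stages. Another, chr16:93790358-93793678, had 3.26 kb in het versus 1.00 kb in KO. The site chr16:93775634-93777193 was called in 3 KO lists and no het list, with 1.00 to 1.27 kb. Of all autosomal sites 15.4% were in no het list, and the share in exactly 3 KO lists and no het list was not computed. On the upper side Chaf1b, which encodes a subunit of chromatin assembly factor 1, was called in 1 list, with 1.55 kb in E13.5 KO.

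Over the 4 windows together 58 sites were found. Of these 9 (15.5%) were called in all 8 lists and 16 (27.6%) in 1 list, against 24.6% and 21.3% of all autosomal sites. Among the 9 is the Trat1 site, which reached the Morc1 window only through its P0 het peak. In het lists only were 11 sites (18.97%, against 11% of all sites) and in KO lists only 10 (17.2%, against 15.4%). The windows of the 4 genes held 104 het peaks, of which 28 had no counterpart, and 96 KO peaks, of which 23 had none. The shares over all autosomal peaks were 12.7% in het and 17.2% in KO.

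**Figure D5:**
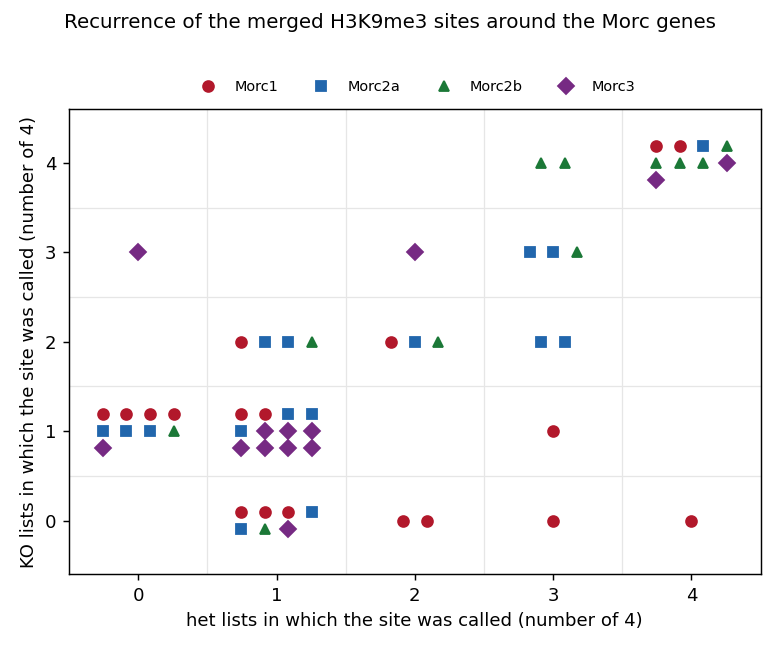
Each symbol is 1 of the 58 merged sites of the 4 windows, placed by the number of het lists (x axis) and KO lists (y axis) in which it was called, with symbols of the same cell set side by side. One Morc1 site stands in the cell of 4 het lists and 0 KO lists, and 9 sites of all 4 members share the upper right cell of 4 het and 4 KO lists.

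Morc4, the family member on the X chromosome, was not among the autosomal genes compared. Its body at chrX:139821635-139871692 had no call in any list, and its flanks had 1 peak in each of E13.5 KO (1.30 kb), E16.5 KO (1.00 kb) and P3 KO (1.28 kb) and none in the other 5 lists. The shares given above are for autosomes, so none of them applies to these peaks.

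Genes that work with MORC proteins were described in the same way. Of 7 genes of the HUSH complex and its partners, 6 had a called body in at least 1 list and 3 in all 8, against 56.1% and 19.9% of all genes. These shares were not matched for gene length, which ran from 6.88 kb (Trim28) to 93.6 kb (Pphln1) in this group. Trim28, a corepressor gene, was the one without calls. Atf7ip, whose product stabilises the H3K9 methyltransferase SETDB1, had 8.77 kb in het versus 14.9 kb in KO at E13.5. It had at most 1.61 kb at stage E16.5 and P0, and 7.63 kb in het versus 9.06 kb in KO at P3. Its relative Atf7ip2 was called in all lists, with 5.52 kb (P0 het) to 15.6 kb (E13.5 KO). Pphln1, the gene of the HUSH subunit periphilin, had 4.09 kb (P0 het) to 13.4 kb (P3 het). Setdb1 itself had 1.31 kb in E13.5 het and no call in E13.5 KO or at E16.5. It had 1.78 kb in het versus 1.71 kb in KO at P0, and 5.77 and 6.07 kb at P3. Tasor was called in the embryonic and P3 lists, with 4.29 kb at most, and Mphosph8 in E13.5 KO, with 1.27 kb.

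Of 12 genes of piRNA-directed silencing in fetal germ cells, 10 had a called body in at least 1 list (56.1% of all genes) and 5 in all 8 (19.9%). Here too the shares were not matched for gene length, which ran from 3.77 kb (Pld6) to 97.4 kb (Tdrd9). Piwil4 and Dnmt3l, for a nuclear PIWI protein and a cofactor of DNA methylation, had none. Spocd1, whose product links PIWI proteins to DNA methylation, had 2.07 to 3.79 kb in the 8 lists. Mov10l1, a piRNA biogenesis helicase gene, had 10.4 kb (E13.5 het) to 24.1 kb (P3 KO). Piwil2 was called in het only, with 1.65 kb at P0 and 1.00 kb at P3. The share of all genes called in het lists only was not computed. Tex15 had 6.49 kb in het versus 1.00 kb in KO at P3, and 1.00 kb in E13.5 het. Dnmt3c, listed in the table as Dnmt3b-ps1, had 2.08 kb in het versus 4.94 kb in KO at P3, and at most 1.54 kb at the earlier stages. Tdrd9 and Asz1 were called in every list, with 4.27 to 12.37 kb and 3.83 to 8.46 kb. Mael had no call at P0 and at most 5.76 kb elsewhere, and Pld6 was called at P3 only, with 1.75 kb in het versus 1.32 kb in KO. The Ddx4 body, 54.3 kb long, was covered over 50.03 kb in het versus 47.5 kb in KO at E13.5, 49.97 and 6.79 kb at stage E16.5, 11.7 and 12.2 kb at stage P0, and 50.2 and 27.5 kb at P3. Mvh, the name in the reporter transgene, is an older name of Ddx4, and the part of the transgene in these values was not tested.

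By number, the HUSH group was longer in het for 3 genes and in KO for 3 at E13.5, 1 and 2 at stage E16.5, 1 and 3 at stage P0, and 2 and 3 at P3. In the piRNA group the numbers were 3 and 5, 6 and 1, 2 and 5, and 6 and 4. Of all genes 10.1% were longer in het and 24.4% in KO at the first of these stages, 20.9% and 10.8% at the next, 8% and 31.5% in the P0 lists, and 12.3% and 30.1% in those of P3. The median called share of the body at P3 was 8.29% in het and 9.84% in KO for the HUSH group and 8.76% and 12.1% for the piRNA group, against 0 for all genes.

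Finally, the genes whose windows were most like each member were found from the percent of the gene and 100 kb flanks called in each of the 8 lists. Likeness was the Euclidean distance over these 8 percentages, in percentage points, among genes over 1 Mb from the member. Nearest to Morc1 were Tcp11l2 (1.63), Nudt12 (1.66) and Slitrk5 (1.79). For Tcp11l2 the window share at P0 was 3.97% in het and 1.62% in KO, beside 5.13% and 1.75% for Morc1. Nearest to Morc2a were Mreg (2.27), Boll (2.33) and Srp14 (2.34). Nearest to Morc2b were Olfr96, Olfr97 (both 2.83) and Aadacl2 (2.88), the first 2 being neighbours with overlapping windows on chromosome 17. Nearest to Morc3 were Rpl13 (2.13), Neurl1a (2.22) and Dstn (2.23).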

How the data were processed

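H3K9me3 ChIP-seq of male germ cells was represented by 8 peak lists deposited by the authors, 1 for each stage and genotype, with no replicate named. The deposited values are peak starts and ends in base pairs, with no score, and the H3 libraries have no list used here. Per the submitters' processing notes, the build was mm10 and the tools were bcl2fastq 2.20, cutadapt 1.18, Bowtie2 2.3.4.1, deepTools 3.5.0 and HOMER 4.10. Their roles, the peak threshold, the use of the H3 libraries and the handling of replicates are not given in the sources used here.

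Unplaced contigs were left out. Called base pairs of gene bodies and of 100 kb flanks were computed with Python 3.11.15, pandas 2.3.3 and numpy 2.4.6, using gene positions of the RefSeq table of GRCm38.p6. The coverage script was checked on simulated lists. Peaks that shared at least 1 bp with the other genotype's list counted as shared, and overlapping peaks of the 8 lists were merged into sites. Promoter sequences came from RefSeq. With 1 list per group no test was made. Alternatives were the longer 50% of peaks, equal peak numbers, leaving out the most common length, genes widened by 5 kb, flanks of 50 or 200 kb and an overlap of 50%. The named genes were the members, their neighbours, Morc4, 2 gene lists and the 3 most similar genes per member. Members and lists were chosen with earlier results of these data known, and the counts of all-8-list and genotype-specific sites were chosen after the values had been seen.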

Additional observations from a re-analysis of the deposited data

Results flagged for a closer look

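In the flanks of the 4 genes, het and KO differed in opposite directions at different stages, by at least the most common peak length of 1001 bp in each direction. With 1 list per group these differences between stages were not tested. For the Morc1 flanks the called length in het minus KO was -3.23 kb at E13.5, 3.43 kb at stage E16.5, 10.1 kb at stage P0 and 6.70 kb at P3. For the Morc2a flanks it was -2.93 kb at E13.5, 6.41 kb at stage E16.5, -1.78 kb at stage P0 and -5.11 kb at P3. For the Morc2b flanks it was -3.86, 2.05, -8.71 and -8.52 kb at the same stages. For the Morc3 flanks it was -2.72 kb at E13.5, -3.04 kb at stage P0 and 2.72 kb at P3. The genome-wide balance of called length also turned between stages, with more flanks longer in KO at E13.5 (74.6%), P0 (68.5%) and P3 (67.8%) and more longer in het at stage E16.5 (64.7%). Its part in these values was not tested.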

How the results depend on the processing

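No paired analysis was possible because each list covers a whole group and names no replicate, and leaving out each replicate in turn was not run for the same reason. Over 32 differences between het and KO and 144 values under alternatives, 10 reversed, 45 moved by over 1.5 times without reversing and 89 stayed within 1.5 times. Of the 45, 5 fell to 0, namely the Morc1 body at all 4 stages and the Morc2a body at E13.5 with the longer 50% of peaks. The 3 later Morc2a body differences are 0 as reported and cannot reverse, and where they stayed 0 they are counted among the 89. Ties among peaks of equal length were broken at random with a fixed seed where peak numbers were made equal. Without peaks of the most common length, Morc1 body at E13.5 turned to -1.56 kb (het minus KO) and Morc3 flanks at E16.5 to 0.347 kb. The latter value also resulted from the longer 50% of peaks and from 50 kb flanks. Morc2a flanks at P0 turned to 3.38 kb with the longer 50%, 0.227 kb with equal peak numbers and 2.87 kb with 50 kb flanks. With 50 kb flanks, Morc2a at P3 turned to 0.147 kb, and Morc2b turned to 0.228 kb at E13.5 and -0.216 kb at stage E16.5.

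Summed over the 4 stages, Morc1 body length went from 10.3 kb in het versus 2.57 kb in KO to 6.30 and 1.56 kb without the most common length and to 0 in both with the longer 50% of peaks, which hold none of the peaks there. Morc2a body went from 1.38 kb in het to 0 with the longer 50%, and to 11.9 kb in het versus 9.43 kb in KO with 5 kb added on each side, which takes in part of the Tug1 site. Flanks of Morc1 went from 41.1 and 24.2 kb to 26.3 and 13.1 kb with the longer 50%, and those of Morc3 KO from 34.3 to 20.03 kb. With 50 kb flanks the sums were 19.8 and 5.001 kb for Morc1, 49.1 kb for Morc2a KO, and 17.3 and 21.5 kb for Morc2b. With 200 kb they were 98.8 and 64.7 kb for Morc1, 127.0 and 138.7 kb for Morc2a, 195.6 and 212.8 kb for Morc2b and 142.3 and 149.4 kb for Morc3. Peaks without a counterpart fell with the longer 50% to 4 in het and 0 in KO for Morc1, to 1 and 1 for Morc2a, and to 0 in KO for Morc3. Requiring 50% overlap raised them to 5 in Morc3 het. Read depth and threshold of the lists are unknown, so the absence of a peak is not the absence of the mark.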
